A study of Mus musculus with 8 samples.

Results

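The regions described here are 2927 PU.1 binding sites of mouse AML246 cells that were called during 4, 8 and 12 days of doxycycline and again in 2 of the 3 libraries titled knockdown. They were chosen by the peak calls themselves. Summits of the 7 deposited lists were merged when they lay within 100 bp of each other, which gave 246675 merged sites. The members are the merged sites called in the libraries titled Day 4, Day 8, Day 12, Day 12- 4 and Day 12- 12, and called neither in Day 0 nor in Day 12- 8. They made up 1.19% of the merged sites. The rule used all 7 lists and no title had a second library, so calls and scores are given as a description.

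AML246 cells are a mouse line of acute myeloid leukaemia, and doxycycline (Dox) was used to bring PU.1 back. Chromatin bound by PU.1 was immunoprecipitated and sequenced over a 24 day course, in cells kept in IL-3 medium and isolated by cell sorting. Dox at 0.1 ug/mL was given from day 0 and taken away at day 12. The restoration libraries were Day 0 (untreated) and Day 4, Day 8 and Day 12 (4, 8 and 12 days of Dox), each from all viable cells. The titles and treatment labels of the knockdown libraries named different points. Day 12- 4 carried the treatment label 12 days of Dox and was sorted for Cd11b-high viable cells. Day 12- 8 carried the label 4 days off Dox, Day 12- 12 the label 8 days off Dox, and both came from all viable cells. An eighth sample, 12 days off Dox by its label, was not analysed here, since the 7 lists belong to the other samples. Titles are used as names below. Read by treatment label, the members were called in each library with Dox and after 8 days off Dox, and were not called in untreated cells or after 4 days off Dox. Cell identity could not be checked against marker genes, since expression was not measured. Each title had 1 library, so no difference between libraries could be set against the spread between cultures and no p-value is given.

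PU.1, encoded by Spi1, is an ETS-family transcription factor needed for the formation of macrophages, granulocytes and B cells. It binds DNA at a GGAA core, with a preference for the purine-rich letters GAGGAAGT, and works at promoters and at distal enhancers, often beside factors of the C/EBP, RUNX and AP-1 families. Low PU.1 activity is a known feature of some myeloid leukaemias.

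Some of the members lay at promoters, and their reference sequence shows the letters under the summits. RefSeq promoter windows of GRCm38.p6 (mm10 coordinates), which run from 250 bases before to 50 bases after a gene's start, held the highest-scoring summit of 157 members together with 50 bases on each side. The 8 windows below are among the 12 with the highest Day 12 scores, and are shown because they include 4 with the letters GAGGAA and 4 without them. Each is 101 bases long, centred on the summit and written 5′ to 3′ on the strand of its gene. Capitals mark GAGGAA, or TTCCTC where it lies on the other strand. In windows without it they mark the GGAA (or TTCC) nearest the summit.
Dennd1c: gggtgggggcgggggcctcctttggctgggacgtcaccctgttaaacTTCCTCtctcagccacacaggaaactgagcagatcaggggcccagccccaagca
Elovl6: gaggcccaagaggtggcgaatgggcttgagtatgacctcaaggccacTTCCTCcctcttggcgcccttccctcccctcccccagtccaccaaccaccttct
Osgin1: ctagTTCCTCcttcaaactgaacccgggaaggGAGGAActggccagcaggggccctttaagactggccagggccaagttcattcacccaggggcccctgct
Ptpn7: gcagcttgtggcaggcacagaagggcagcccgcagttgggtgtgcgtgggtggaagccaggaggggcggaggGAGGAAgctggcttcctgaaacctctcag
Dok3: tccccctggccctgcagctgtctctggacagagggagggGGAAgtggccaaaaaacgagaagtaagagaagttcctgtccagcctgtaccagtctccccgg
Ncf1: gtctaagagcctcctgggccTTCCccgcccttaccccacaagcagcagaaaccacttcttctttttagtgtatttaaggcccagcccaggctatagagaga
Tnpo3: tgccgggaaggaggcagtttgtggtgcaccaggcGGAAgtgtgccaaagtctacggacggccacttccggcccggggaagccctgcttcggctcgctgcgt
Eif4a1: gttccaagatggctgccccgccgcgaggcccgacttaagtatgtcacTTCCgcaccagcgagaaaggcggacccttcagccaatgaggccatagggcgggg

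The scores of these sites were taken to be −log10 q-values, so a higher score is a peak farther from its background in that list. Dennd1c, which encodes an activator of Rab GTPases, had its window at chr17:57078475-57078575 on the minus strand, with the summit 27 bases before the start. The Dennd1c site scored 212, 193 and 698 at Day 4, Day 8 and Day 12, and 21.2 and 116 in Day 12- 4 and Day 12- 12. The Elovl6 window (chr3:129532161-129532261, plus strand) belongs to an enzyme that lengthens fatty acids. Its site scored 211, 217 and 461 at Day 4, Day 8 and Day 12, and 35.6 and 241 in Day 12- 4 and Day 12- 12. In both windows the GAGGAA letters were centred 0.5 bases from the summit. Osgin1, an oxidative stress-induced growth inhibitor gene, held 2 copies of GAGGAA in chr8:119436950-119437050 (plus strand), the nearer centred 15.5 bases from the summit. The Osgin1 site scored 255, 212, 487, 20.03 and 144 in the same order of libraries. Ptpn7, a tyrosine phosphatase of blood cells, held 1 copy in chr1:135132612-135132712 (plus strand), centred 24.5 bases from the summit. The Ptpn7 site scored 103, 99.7, 533, 25.9 and 106.

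High scores were also listed for the windows without GAGGAA. Dok3 encodes an adaptor that restrains tyrosine kinase signalling, and its window was chr13:55528536-55528636 on the minus strand. The Dok3 site scored 268, 204 and 617 at Day 4, Day 8 and Day 12, and 16.7 and 153 in Day 12- 4 and Day 12- 12. Ncf1 encodes a cytosolic subunit of the phagocyte NADPH oxidase, and its summit lay 16 bases before the start in chr5:134229591-134229691 (minus strand). The Ncf1 site scored 425, 190.2, 571, 14.5 and 88.1. Tnpo3, a nuclear import receptor gene, had its window at chr6:29609811-29609911 (minus strand), and its site scored 109, 64.9, 434, 50.4 and 124. Eif4a1 encodes a helicase of translation initiation, with its window at chr11:69672494-69672594 (minus strand), and its site scored 57.7, 46.9, 428, 29.4 and 100.3. In each of these 8 windows the Day 12 score was the highest of the 5, which choosing them by Day 12 score favoured. The Day 12- 4 score was the lowest in each, as it was for 2304 of all 2927 members (78.7%).

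The letters were then counted over all 157 member windows, on both strands. GAGGAA occurred in 33.8% of them (53 of 157, exact 95% interval 26.4 to 41.7), and in 42 of those 53 it was centred within 25 bases of the summit. The same share was 16.2% over all merged sites with such a window (1063 of 6546, interval 15.4 to 17.2). It was 37.7% for sites called in all 7 libraries (129 of 342), 21.6% for sites called in all but Day 0 (83 of 384) and 26.5% for sites called in days 4, 8, 12 and Day 12- 12 alone (73 of 275). The longer GAGGAAGT, which contains GAGGAA, occurred in 15.9% of member windows (25 of 157), beside 3.93% of all merged sites, 16.7% of sites called in all 7, 4.95% of sites called in all but Day 0 and 9.82% of sites called in days 4, 8, 12 and Day 12- 12 alone (27 of 275). The short core GGAA, contained in both, occurred in 93.6% of member windows and in 75.8% of all merged sites. Over whole promoter windows of 300 bases, GAGGAA was in 47.8% of the 157 that held a member and in 28.3% of all 32851. GAGGAAGT was in 19.7% and 3.20% of them. GGAA was in 157 of the 157 and in 96.0% of all promoter windows.

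For the letters of RUNX, C/EBP and AP-1 factors, the share over all merged sites fell inside the members' exact interval, and for the GC box it did not. The GC box GGGCGG, a frequent element of promoters, occurred in 25.5% of member windows (40 of 157, interval 18.9 to 33.0), beside 39.8% of all merged sites, 56.4% of sites called in all 7 and 45.3% of sites called in all but Day 0. It was in 28.4% of sites called in days 4, 8, 12 and Day 12- 12 alone (78 of 275), a share inside the members' interval. It was in 35.7% of all promoter windows of 300 bases. The RUNX-type TGTGGT was in 10 of 157 member windows and in 4.34% of all merged sites, and in 16.8% of all promoter windows. The C/EBP-type TTGCNNAA was in 4 of 157 and in 2.23%, and in 10.8% of all promoter windows. The AP-1-type TGANTCA was in 3 of 157 and in 1.73%, and in 7.81% of all promoter windows. A match describes the letters and is not a shown binding site, and these windows cover only members near listed gene starts. Member windows with GAGGAA had a median Day 4 score of 99.4 (53 sites) and those without it 54.9 (104 sites), while their median Day 12 scores were 212 and 211.

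The 5 libraries that called the members differed widely in the length of their lists. Day 4 called 23.3% of all merged sites, Day 8 13.8%, Day 12 35.0%, Day 12- 4 4.00% and Day 12- 12 60.2%. The libraries that did not call the members were Day 0, with 3.26% of the merged sites, and Day 12- 8, with 8.67%. The short Day 12- 4 list set most of the membership: 29.7% of its 9868 entries were members, against 1.97% of the 148415 entries of Day 12- 12. With Day 12- 4 left out before merging, the rule on the other 6 lists held 8912 sites. Among the sites merged over all 7 lists, 5938 had the members' pattern but for the call in Day 12- 4. The corresponding number was 579 for Day 12- 12, 200 for Day 12, 77 for Day 8 and 67 for Day 4. Of the 5504 sites called in all 5 libraries, 53.2% were called in neither Day 0 nor Day 12- 8 and so were members. A further 1211 (22.0%) were called in Day 12- 8 as well, 430 (7.81%) in Day 0 as well, and 936 (17.0%) in both.

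The scores of the members spanned a wide range in each list, but their highest score in Day 12- 4 lay far below the highest of that list (724), and so did that in Day 12- 12 (796). Day 4 scores ran from 3.31 to 635 with a median of 117, and Day 8 scores from 3.01 to 490.3 with a median of 64.2. Day 12 scores ran from 2.48 to 852 with a median of 88.7. This last median was 55.7 without the call in Day 12- 4 and 152 without the condition on Day 12- 8, and it was 295 with each list reduced to its 8043 highest sites. In Day 12- 4 the members scored from 1.40 to 120.1, with a median of 10.4, and in Day 12- 12 from 1.47 to 459.7, with a median of 30.6. Beside the whole lists, the members sat high in 4 of the lists and in the middle of the remaining list. The whole-list medians were 11.8, 14.1 and 8.43 at Day 4, Day 8 and Day 12, and 9.48 and 6.34 in Day 12- 4 and Day 12- 12. In the same order of libraries, sites called in all 7 had medians of 43.3, 145, 299.7, 42.9 and 74.8. Those called in all but Day 0 had 35.0, 42.3, 261, 18.6 and 51.9. The 5938 sites that lacked only the Day 12- 4 call had 27.4, 17.7, 44.2 and, in Day 12- 12, 13.4. Among these classes the members had the highest median at Day 4 only. The top 10% of a list held 67.0%, 39.3% and 54.5% of the members at Day 4, Day 8 and Day 12, and 3.45% and 78.0% in Day 12- 4 and Day 12- 12. Only 72 of the 2927 members were in the top 10% of all 5 lists, and 179 were in the top 10% of none.

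**Figure D1:**
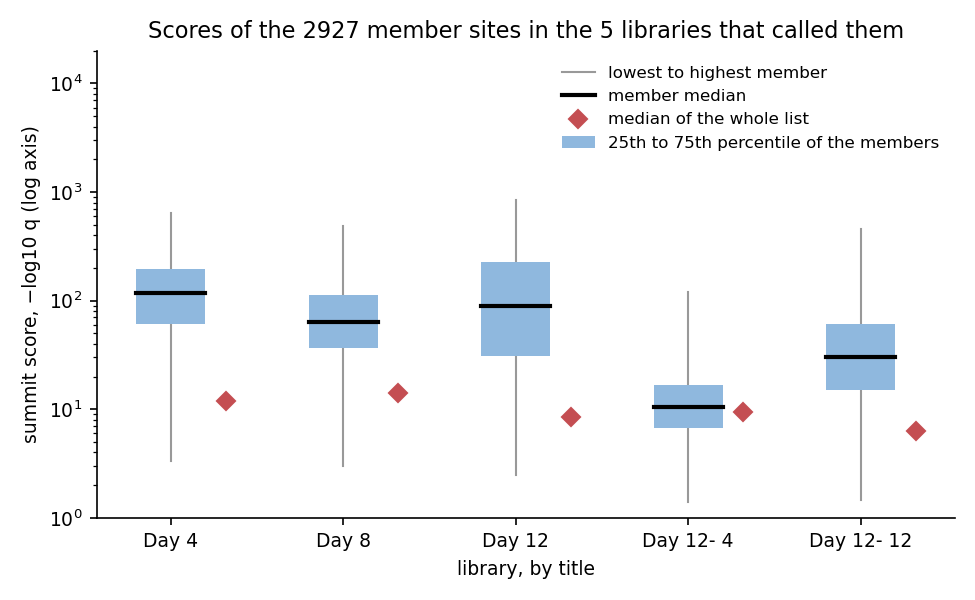
Scores of the member sites (vertical axis, −log10 q, log scale) in each of the 5 libraries that called them (horizontal axis). Boxes span the 25th to 75th percentile, black lines mark member medians, grey lines run from the lowest to the highest member and red diamonds mark the median of the whole list. In Day 12- 4 the member median of 10.4 lies beside the list median of 9.48, while in the other libraries it lies well above.

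The limits of the rule can be read from the members closest to them. The lowest score of any member was 1.40, in Day 12- 4 at a site inside Spn, the gene of the leukocyte surface protein CD43. The Spn site scored 68.1 at Day 4, 75.3 at Day 8, 147 at Day 12 and 29.4 in Day 12- 12. A site inside Nav1 scored 1.47 in Day 12- 12, and a site 185 bp before Sf3b6, a splicing factor gene, scored 1.49 in Day 12- 4. Only 5 members had a score under 2 in any list. Just outside the rule, the lowest Day 12- 8 score of a site called in the 5 libraries and in Day 12- 8 was 2.68, 970 bp before Ccin. The lowest Day 0 score of a site called in the 5 libraries and in Day 0 was 2.60, inside Irak2, a kinase of Toll-like receptor signalling. In distance, the nearest Day 12- 8 summit to a member lay 101 bp from the site in Ywhag, and the nearest Day 0 summit 105 bp from the site beside Bicra. A Day 0 summit lay within 500 bp of 36 members and a Day 12- 8 summit within 500 bp of 189. The median distance to a summit was 46.5 kb for Day 0 and 17.9 kb for Day 12- 8. The largest gap between neighbouring summits of a member had a median of 32 bp and reached 100 bp in 7 members. A missing call is not absence of binding, and the depth of the Day 0 and Day 12- 8 libraries was not given in the sources used here.

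The order of the members by score differed between libraries, and the libraries fell into pairs with a like order. Spearman's rho over the 2927 members was 0.76 between Day 12 and Day 12- 12 and 0.75 between Day 4 and Day 8. It was 0.15 between Day 4 and Day 12 and 0.17 between Day 4 and Day 12- 12. The library titled Day 12- 4, labelled as 12 days of Dox in Cd11b-high cells, was ordered more like Day 4 (rho 0.55) and Day 8 (0.54) than like Day 12 (0.21) or Day 12- 12 (0.35). Day 8 had a rho of 0.39 with Day 12 and of 0.47 with Day 12- 12. The points are sites chosen because all 5 libraries called them, each library is a single sample, and the values describe the lists with no p. Among the 435 members within 1 kb of a gene end and the other members taken apart, rho between Day 4 and Day 12 was 0.21 and 0.22. The median offset between summits was 14 bp between Day 4 and Day 8 and ran from 22 to 31 bp in the other 9 pairs. Small offsets follow in part from the rule, which joined summits within 100 bp of each other.

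**Figure D2:**
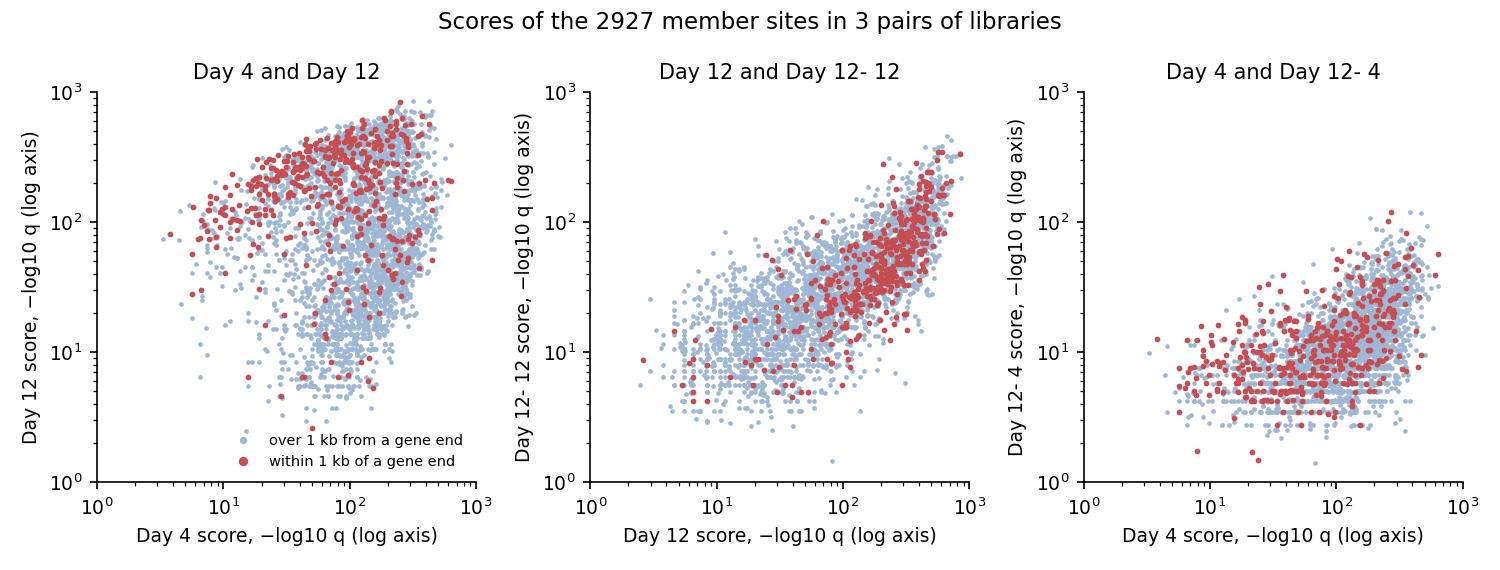
Each point is 1 member, with its scores (−log10 q, log axes) in the 2 libraries named on the axes, in red where it lay within 1 kb of a protein-coding gene end. Day 12 and Day 12- 12 scores form 1 band (rho 0.76). At a given Day 4 score the Day 12 scores spread over a wide range (rho 0.15). Red points had a median Day 12 score of 200.2, above members inside genes and over 1 kb from an end (94.8). Their 25th to 75th percentiles (105 to 319) overlapped those of the latter (34.8 to 244).

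Members at the extremes of the Day 4 and Day 12 orders show this spread, and the next 4 were picked after their values were seen. A site inside Purb, which encodes a single-stranded DNA-binding protein, scored 31.0, 70.5 and 377 at Day 4, Day 8 and Day 12, and 13.8 and 45.8 in Day 12- 4 and Day 12- 12. A site inside Spag9, a scaffold of JNK signalling, scored 18.3, 87.6, 306, 7.04 and 57.3. The Purb and Spag9 sites ranked far higher in the Day 12 list (1139 and 1756) than in the Day 4 list (13878 and 20754). A Day 12- 8 summit lay 108 bp and a Day 0 summit 138 bp from the Spag9 site, close to the 100 bp linkage limit. For the Purb site these gaps were 444 and 350 bp. A site inside Cubn, the gene of the vitamin B12 receptor cubilin, scored 289.97, 48.5 and 15.8 at Day 4, Day 8 and Day 12, and 23.4 and 6.34 in Day 12- 4 and Day 12- 12. A site inside Ern1, an endoplasmic reticulum stress sensor, scored 335, 174, 19.996, 6.72 and 4.21. These ranked 723 and 475 in the Day 4 list, and 25010 and 21169 in the Day 12 list.

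Most members lay away from gene ends. The share within 1 kb of the nearer end of a protein-coding gene was 14.9% (435 of 2927, exact 95% interval 13.6 to 16.2), beside 13.3% of all merged sites. The share was 74.9% for the 936 sites called in all 7 libraries (interval 71.99 to 77.6) and 62.7% for the 1211 called in all but Day 0 (59.9 to 65.4). It was 15.7% for the 5938 called in days 4, 8, 12 and Day 12- 12 alone (14.8 to 16.7), and 8.14% for the 430 called in the members' libraries and Day 0 but not Day 12- 8 (5.73 to 11.1). The members' interval lay far below those of the classes that Day 12- 8 had called, and overlapped that of the class that lacked only the Day 12- 4 call. The lists of the libraries without a call were themselves rich in gene ends: 61.1% of the Day 0 list and 44.4% of the Day 12- 8 list, against 11.9%, 21.5% and 17.7% at Day 4, Day 8 and Day 12, and 30.0% and 10.3% in Day 12- 4 and Day 12- 12. With no condition on Day 12- 8, 29.0% of the sites lay within 1 kb of a gene end. The part of list length and depth in these shares was not tested.

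**Figure D3:**
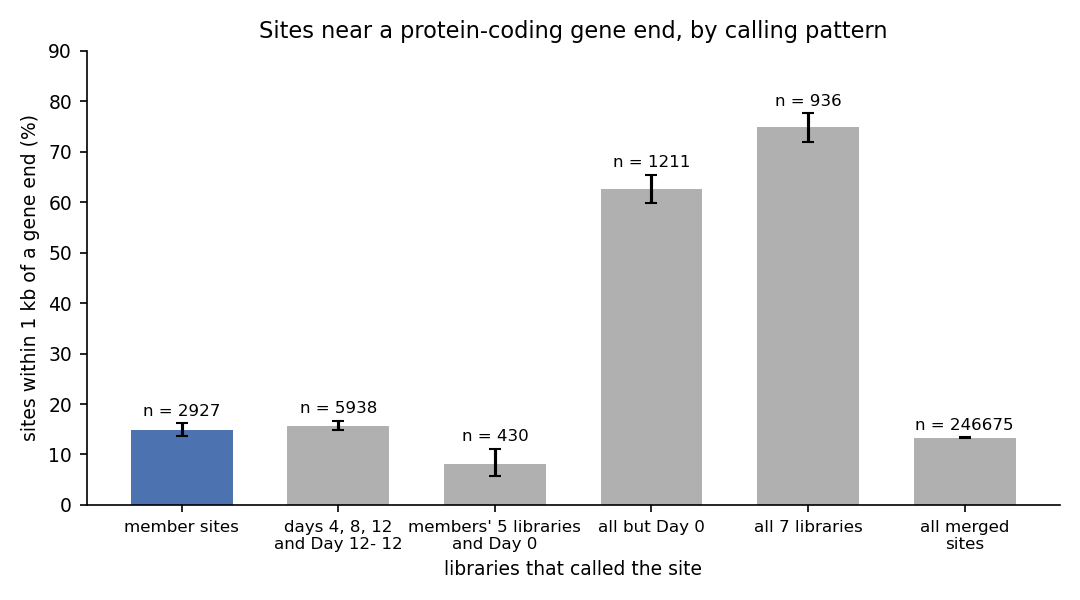
Share of sites within 1 kb of a protein-coding gene end (vertical axis, %) by the libraries that called them (horizontal axis). Error bars are exact 95% intervals and cover counting error only. Member sites (blue, 14.9%) lie close to all merged sites (13.3%) and far below sites called in all 7 libraries (74.9%).

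By distance from listed starts, 8.995% of the members on chromosomes of the promoter table lay within 250 bp of a start (256 of 2846), beside 5.23% of all merged sites and 59.1% of the sites called in all 7. Inside a protein-coding gene lay 55.4% of the members (1622 of 2927, interval 53.6 to 57.2), beside 62.8% of all merged sites. The classes called in all 7 and in all but Day 0 had 65.9% and 67.2% inside genes. The class called in days 4, 8, 12 and Day 12- 12 alone had 59.8% (58.5 to 61.0). Of that class, 7.40% lay within 250 bp of a start, and 21.7% outside genes and over 10 kb from any gene end. Outside genes and over 10 kb from any gene end lay 25.2% of the members, 5.66% of the sites called in all 7 and 24.3% of all merged sites. The X chromosome held 19 members (0.649%), beside 1.16% of all merged sites. Exons and introns were not assigned here.

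The position of a member went with its scores except in Day 12- 4. The direction at Day 4 and Day 8 was opposite to that at Day 12 and Day 12- 12. When members were split into 4 equal bins by Day 12 score, 25.6% of the highest bin lay within 1 kb of a gene end (interval 22.5 to 28.9), then 21.0%, 8.47% and 4.37% (3.01 to 6.12) in the lowest. By Day 12- 12 score the bins had 20.9%, 18.9%, 12.3% and 7.38%. By Day 4 score they ran the other way, from 10.3% in the highest bin (8.16 to 12.7) to 24.0% in the lowest (21.0 to 27.3). Day 8 bins ran from 10.9% to 21.6%. Across bins of the Day 12- 4 score the shares were 14.6%, 14.1%, 16.4% and 14.3%, with overlapping intervals. When members were ordered instead by the difference between their Day 12 and Day 4 ranks among members, 32.7% of the bin that stood highest at Day 12 relative to Day 4 lay near a gene end (29.3 to 36.2), and 5.60% of the opposite bin (4.05 to 7.52). The 435 members near gene ends had a median score of 79.9 at Day 4 and 200.2 at Day 12, and the 1124 members outside genes and over 1 kb from an end 118 and 53.3. Their median Day 12- 4 scores were 10.3 and 10.4.

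**Figure D4:**
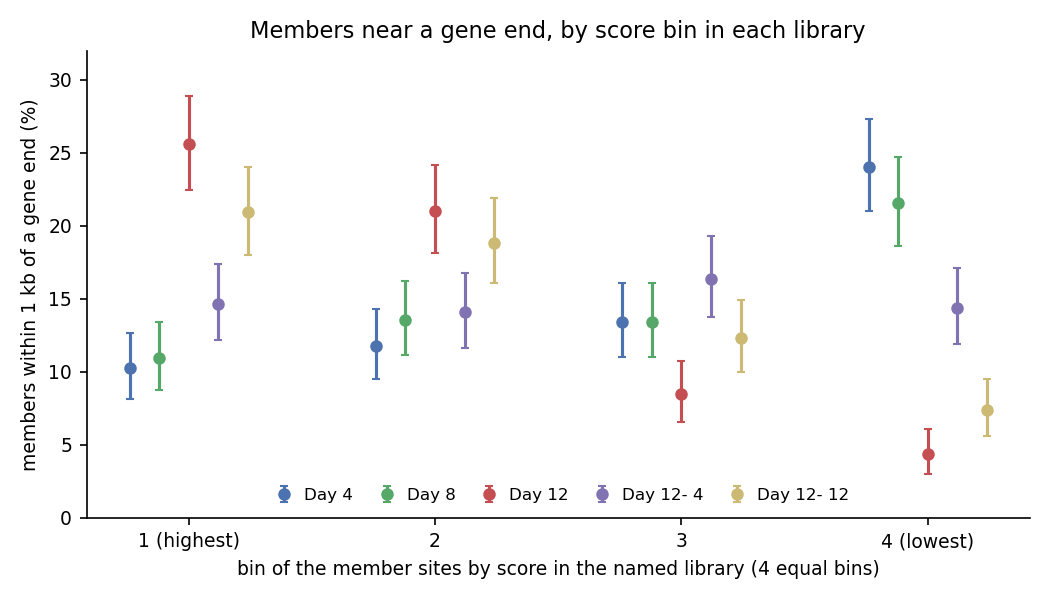
Share of members within 1 kb of a gene end (vertical axis, %) in each of 4 equal bins of the members by score in the named library (horizontal axis, highest bin at left). Points carry exact 95% intervals. The share runs from 25.6% down to 4.37% by Day 12 score and from 10.3% up to 24.0% by Day 4 score.

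The 10 members with the highest Day 12 scores lay inside genes or up to 51.3 kb from the nearest. The highest, at chr8:88300413-88300430, lay inside Adcy7, an adenylyl cyclase that makes cyclic AMP. The Adcy7 site scored 318, 391 and 852 at Day 4, Day 8 and Day 12, and 11.4 and 219 in Day 12- 4 and Day 12- 12. Next was a site 5.57 kb before the start of Ptpn1, a tyrosine phosphatase gene, at chr2:167925172-167925194. The Ptpn1 site scored 424, 477, 849, 50.9 and 340.3. A site 249 bp beyond the end of Zc3h12a, whose product is an RNase that degrades inflammatory messages, was at chr4:125118150-125118181. The Zc3h12a site scored 249, 235, 844, 58.0 and 332. These 3 sites ranked 8, 9 and 11 in the Day 12 list, and 4063, 837 and 710 in the Day 12- 4 list.

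Among the other 7, the site nearest Sik1 (8.33 kb away, chr17:31835899-31835930), a salt-inducible kinase gene, scored 450.1, 421, 713, 77.3 and 428. A site 299 bp before Pik3cd, the leukocyte catalytic subunit of phosphoinositide kinase, scored 214, 274, 712, 35.9 and 206 at chr4:149702859-149702872. A site nearest Kmt5b, a histone methyltransferase gene, lay 14.7 kb beyond it and scored 235, 321, 716, 38.0 and 192. All 3 had a higher score in Day 12- 12 than in Day 12- 4, the order that the medians over all members also had (30.6 and 10.4). The remaining 4 were a site inside Ccdc12 and sites nearest Zswim4, Armc12 and Lrrc28, the last 51.3 kb from the gene. They scored from 715 to 778 at Day 12, from 34.7 to 58.0 in Day 12- 4 and from 297 to 324 in Day 12- 12.

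In the library titled Day 12- 4 the highest member lay inside Grk6, a kinase of G protein-coupled receptors, at chr13:55447862-55447906. The Grk6 site scored 385, 379 and 663 at Day 4, Day 8 and Day 12, and 120.1 and 459.7 in Day 12- 4 and Day 12- 12, and was also the highest member of Day 12- 12. Its ranks in the 5 lists were 294, 58, 137, 250 and 39. The next 4 in Day 12- 4 were inside Ywhag, an adaptor that binds phosphorylated proteins (119), inside Pgs1, an enzyme of cardiolipin synthesis (117), 53.1 kb before Cyp2b13, a cytochrome P450 gene (108), and inside Paqr7, a membrane progesterone receptor gene (101.3). Of these 4, the Cyp2b13 site alone had a higher score in Day 12- 4 than at Day 12 (99.5). The Ywhag site lay 101 bp from a Day 12- 8 summit. The Paqr7 site lay 142 bp from a Day 12- 8 summit and 151 bp from a Day 0 summit, so both sites were close to the 100 bp linkage limit. In Day 12- 12 the members after Grk6 were those nearest Sik1 (428) and inside Mtus2 (387), Rassf1 (378), a Ras-association tumour suppressor, and Irf1 (377), an interferon regulatory factor. The Irf1 site, at chr11:53772731-53772760, scored 167 at Day 4, 186 at Day 8, 447 at Day 12 and 56.7 in Day 12- 4.

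A member lay in or within 10 kb of 2426 of 21883 protein-coding genes, a background of 11.1%. That count was 6081 without the call in Day 12- 4 and 3996 without the condition on Day 12- 8. Longer genes had a member more often: with genes in 4 equal bins by length, 4.92% of the shortest bin, 10.99% and 11.7% of the middle bins and 16.7% of the longest bin. The 13 gene lists described next hold 273 distinct genes and were chosen with earlier results of these data known. They describe where the sites lie and carry no enrichment test.

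Signalling genes of myeloid cells had members most often among the lists. Of the 30 kinases, adaptors and GTPase regulators, 16 had a member within 10 kb (53.3%), with 7 of them holding 2 or more, and 15 of the 30 belonged to the longest bin of genes. The median of their highest Day 12 scores was 350.2, beside 145 over all genes with a member. The highest score of a gene can rise with its number of members, and only 375 of all 2426 genes with a member had 2 or more. Besides Ptpn1, Pik3cd and Dok3, the fourth by Day 12 score was Ptpn18, a tyrosine phosphatase gene, whose site 0.533 kb inside the start scored 264, 192 and 468 at Day 4, Day 8 and Day 12, and 25.1 and 117 in Day 12- 4 and Day 12- 12. Pik3cd had a further member 44.4 kb inside the gene, with 575 at Day 12. Also with members were Inpp5d, Fgr, Csk, Dock2, Plcg2, Lcp2, Coro1a, Syk, Rasa3, Lyn, Prkcd and Lcp1. Sites called in days 4, 8, 12 and Day 12- 12 alone lay within 10 kb of 18 of the same 30 genes (4622 of all 21883), more than the members did. Sites called in all 7 libraries lay near 10 of the 30 (1387 of all genes) and sites called in all but Day 0 near 6 (1861 of all genes). The whole Day 12 list had a site near each of the 30 and near 16871 of all genes.

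Of the 24 genes of the phagocyte oxidase, granules and lysosome, 9 had a member (37.5%), and only 2 of the 24 were in the longest bin of genes. Cytosolic oxidase genes were among them, with 3 members at Ncf1, of which 2 lay nearer to Gtf2ird2 and Gtf2i, and 3 at Ncf4. The highest Ncf4 member lay inside the gene at chr15:78247800-78247861 and scored 218, 242, 499, 24.6 and 96.1 in the order used above. Elane and Prtn3, neighbouring genes of neutrophil granule proteases, shared 1 member 44 bp before Elane, which scored 55.9, 57.3, 137, 6.48 and 23.4. Ltf, Mpo, Ctsb and Lamp1 each had 1 member, with Day 12 scores from 8.43 to 48.6, and the Mpo site lay inside Lpo. Sites called in days 4, 8, 12 and Day 12- 12 alone lay within 10 kb of 6 of the 24 genes (4622 of all 21883).

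Of the 34 myeloid receptor and adhesion genes, 11 had a member (32.4%). Sites called in days 4, 8, 12 and Day 12- 12 alone lay within 10 kb of 12 of the 34 (4622 of all 21883). For sites called in all but Day 0 the number was 6 (1861 of all genes). Itgb2, the common beta chain of the leukocyte integrins, held 4 inside the gene, with Day 12 scores of 401, 343, 273 and 74.1. The highest of them scored 93.6 and 54.6 at Day 4 and Day 8, and 11.6 and 122 in Day 12- 4 and Day 12- 12. Tyrobp, an activating adaptor of myeloid receptors, had a member 2.09 kb away, nearer to its neighbour Hcst, that scored 209, 153, 387, 8.09 and 88.95. A member 1.35 kb from Sirpa, an inhibitory receptor gene, scored 288, 241, 320.2, 20.03 and 101.2. The member counted for Cd68 is the Eif4a1 promoter site shown above, 6.38 kb from Cd68. Receptor genes of the IL-3 family held 3 of the 11: Csf2rb with 208 at Day 12, Csf2rb2 with 95.6 and Il3ra with 78.8. Their scores in Day 12- 4 were 4.20, 8.53 and 7.61. Csf2ra, of the same receptor family and also on the list, had no member within 10 kb. Csf2rb and Csf2rb2 are near copies, and how reads that fit both were placed was not given in the sources used here. The other 4 were Pirb, Cd300lf, whose site lay inside Rab37, Fcgr4 and Cd300a.

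Of the 26 myeloid transcription factors, 6 had a member (23.1%), with a median highest Day 12 score of 391. Sites called in days 4, 8, 12 and Day 12- 12 alone lay within 10 kb of 10 of the 26 (4622 of all 21883). For sites called in all but Day 0 the number was 4 (1861 of all genes). Spi1, which encodes PU.1 itself, had 2: a site inside the gene at chr2:91084724-91084773 that scored 87.0, 53.6 and 374 at Day 4, Day 8 and Day 12, and 9.48 and 65.95 in Day 12- 4 and Day 12- 12, and a site 1.08 kb outside the gene that scored 117, 78.4, 43.6, 6.72 and 22.2. The inside site had the higher Day 12 score and the outside site the higher Day 4 score. Near Egr1, an immediate-early zinc finger factor of macrophage differentiation, the higher of 2 members scored 367, 283, 567, 57.1 and 266. Cebpe, a factor of late granulocyte maturation, had a member 0.886 kb away that scored 157, 131, 408, 6.72 and 60.2. Irf1, Fos and Irf4 were the other 3, and the Irf4 site, 29 bp before the start, scored 27.9 at Day 12.

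Among 20 genes of inflammatory feedback 5 had a member (25%), beside 11.1% of all protein-coding genes. Sites called in days 4, 8, 12 and Day 12- 12 alone lay within 10 kb of 10 of these 20 (4622 of all 21883). For sites called in all but Day 0 the number was 5 (1861 of all genes). Zc3h12a had 3, of which the second, 1.70 kb beyond the end, scored 218, 207, 370.4, 25.9 and 132. Socs3, a suppressor of cytokine signalling, had 2, and the higher scored 113 and 350.4 at Day 8 and Day 12, and 5.02 and 55.9 in Day 12- 4 and Day 12- 12. Zfp36, an RNA-destabilising protein gene, had 1 with 255 at Day 12 and 6.72 in Day 12- 4. Dusp2, a phosphatase of MAP kinases, had 1 with 200.2 and 7.38, and Cish had 1 with 65.3 and 8.53, which lay inside Mapkapk3, 9.86 kb from Cish. Of 24 stem and leukaemia-associated genes 4 had a member (16.7%), and 11 of the 24 were in the longest bin of genes. Sites called in days 4, 8, 12 and Day 12- 12 alone lay within 10 kb of 7 of these 24 (4622 of all 21883). A site inside Runx1, a core haematopoietic factor, scored 129, 163, 558, 23.5 and 108 at chr16:92801770-92801892. Inside Ikzf1, which encodes Ikaros, the higher of 2 members scored 266, 321, 247, 78.9 and 145. Etv6 and Mecom were the other 2, with highest Day 12 scores of 207 and 55.8.

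The cell cycle, housekeeping and other lineage lists also held members. Of 24 cell cycle genes 6 had a member (25%), led by Ccnd3 with 206 at Day 12, Ccnb1 with 176, Cdkn1a with 93.8 and Cdk6 with 88.7. The Ccnb1 site lay inside Cenph, 2.87 kb from Ccnb1. Of 14 T-lymphoid genes 4 had one (28.6%), but Cd3d and Cd3g shared a single site with 97.3 at Day 12, and Gata3 and Il2ra had 75.5 and 8.43. Gp9, Klf1 and Itga2b were the 3 of 14 erythroid and megakaryocytic genes, with 251, 131 and 61.8. The Gp9 site lay inside Rab43, 9.56 kb from Gp9, and the Klf1 site inside Gcdh, 8.19 kb from Klf1. Pax5 was the 1 of 14 B-lymphoid genes (78.5), Hdc the 1 of 10 mast cell and basophil genes (459.2) and Krt5 the 1 of 20 non-haematopoietic genes (18.7). Of 20 housekeeping genes 3 had a member, among them Gapdh with 303 and Gusb with 13.0, while 9 of the same 20 had a site called in all but Day 0. Sites called in days 4, 8, 12 and Day 12- 12 alone lay near 4 of these 20. They lay near 6 of the 24 cell cycle genes and 1 of the 14 T-lymphoid genes. Over all 21883 protein-coding genes, these sites lay near 4622, and sites called in all but Day 0 near 1861.

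**Figure D5:**
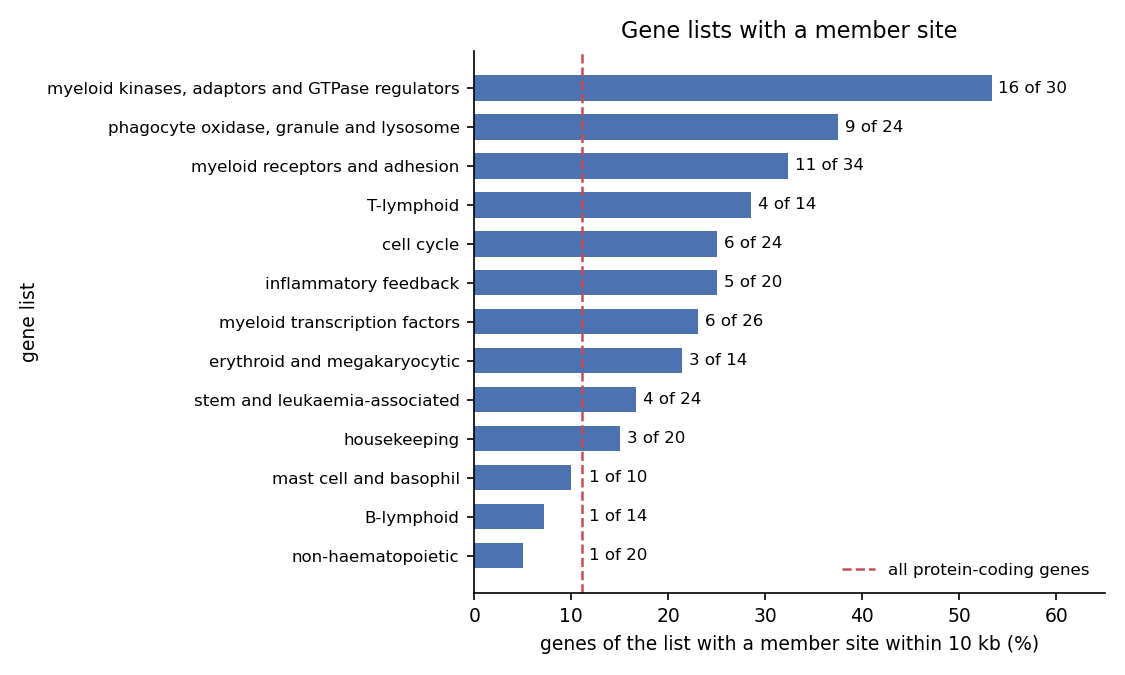
Share of each gene list with a member site in the gene or within 10 kb (horizontal axis, %), with the number of genes beside each bar. The dashed line is the share over all protein-coding genes (11.1%); 10 of the 13 lists lie above it and the B-lymphoid, mast cell and non-haematopoietic lists below.

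Another member lay within 10 kb of 12.4% of the members (362 of 2927, interval 11.2 to 13.6) and within 50 kb of 36.2% (1060 of 2927). These shares were not worked out for other classes, so they do not tell whether members are spread or grouped. In all, 375 genes had 2 or more members within 10 kb. Among the genes with the most were Gse1 with 8, 3110082I17Rik and Vps13d with 6 each, and 7 genes with 5, Agap1, Inpp5d, Itsn1, Ppard, Sema4b, Zfhx3 and Zscan2. Several of these are long, with Gse1 spanning 353 kb, Vps13d 324 kb and Zfhx3 682 kb, but Zscan2, a zinc finger gene, spans 17.9 kb. Members of 1 gene could differ widely in their scores. At Gse1 the 8 members, all inside the gene, had Day 12 scores from 31.99 to 572 and Day 4 scores from 10.6 to 187. The highest at Day 12 lay at chr8:120324788-120324808 and scored 141, 109.8, 572, 18.9 and 71.9. At Vps13d Day 12 scores ran from 15.1 to 203, and the member highest in Day 12- 4 (86.3) scored 323 at Day 4 and 98.8 at Day 12. Inpp5d, which encodes the inositol phosphatase SHIP1, had 5 members inside the gene. Its member 60 bp inside the start scored 280.2, 152 and 443 at Day 4, Day 8 and Day 12, and 25.9 and 158 in Day 12- 4 and Day 12- 12, and the member 6.26 kb inside scored 465, 479, 344, 74.2 and 204. The 2 were ordered differently in the Day 12 list than in the other 4. Ppard, a lipid-sensing nuclear receptor gene, had 5 with Day 12 scores from 208 to 496 and Day 4 scores from 16.8 to 182. Its member with the lowest Day 12 score also had the lowest score in the other 4 lists.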

How the data were processed

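The deposited files were 7 lists of peak summits, 1 per library, each with a position and a score. MACS2 and the mm10 build were used, per the submitters' processing notes. The deposited score was read as −log10 q, since the lowest score of all lists, 1.30104, sits at a q of 0.05. The aligner, MACS2 version, control, sequencing depth and any pooling of libraries are not given in the sources used here. Scores are therefore values of the authors within each list, used to describe and rank sites, and do not measure a change in binding between libraries.

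Summits were linked at 100 bp with Python 3.11.15, numpy 2.4.6 and pandas 2.3.3, and a site took its highest score per list. The linkage code was checked on simulated, well-separated sites only, so the check does not cover closely spaced sites. Shares carry exact (Clopper-Pearson) 95% intervals from scipy 1.17.1, which cover counting error only. Plots used matplotlib 3.10.9. Genes and promoter sequences came from RefSeq tables of GRCm38.p6, which shares mm10 coordinates. The gene table gave no exons, and the promoter table covered 17491 of the 21883 protein-coding genes, so positions use either end of a gene. All 273 distinct listed genes matched the gene table.

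Sites named are the 10 members highest at Day 12, the 5 highest in Day 12- 4 and in Day 12- 12, those nearest the limits of the rule, the genes with the most members, and up to 4 genes per list by Day 12 score. Other named sites were chosen after their values were seen. Some sites that these rules name are not reported here. The members and lists were chosen with earlier results of these data known. Alternatives tried were the linkage distance, score minimums, distance to a Day 0 or Day 12- 8 summit, leaving out each library, equal list lengths, and the distances and windows used.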

Additional observations from a re-analysis of the deposited data

How the results depend on the processing

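With each list reduced to its 8043 highest sites, the number of members was 1093, near a gene end lay 19.3% and inside a gene 62.3%, 1121 genes had a member, and the median Day 12 score was 295. Leaving out each library in turn gave 2936 to 8912 members, 13.3% to 29.0% near a gene end, 54.4% to 58.3% inside a gene, 2451 to 6081 genes, a median Day 12 score of 55.7 to 152, and GAGGAA in 25.1% to 35.8% of windows. The highest counts came without Day 12- 4 and the highest gene-end share without Day 12- 8. Linking summits at 50, 200 and 500 bp put 17.9%, 13.3% and 12.2% of the members near a gene end. Asking for no Day 0 or Day 12- 8 summit within 500 bp or 2 kb put 11.03% and 9.97% there. Counting gene ends at 500 bp, 2 kb and 5 kb gave 11.5%, 20.4% and 33.0%. Genes with a member inside numbered 1370, and genes with a member within 50 kb 5302. Windows of 25 and 100 bases on each side held GAGGAA in 25.6% and 40.8% of cases. Apart from leaving out Day 12- 4 and equal list lengths, each alternative kept the number of members within 1.5 times 2927. Where a value moved, the cause was not tested. No paired analysis was possible because each titled time point had 1 library and no test was run. Depth was not given in the sources used here, so a missing call in Day 0 or Day 12- 8 sets no upper limit on binding there.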

Other observations

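Several members at myeloid signalling genes had high Day 4 scores and much lower Day 12 scores, and they are given here as values, chosen after those values were seen. A site 9.94 kb before Syk, the kinase downstream of immunoreceptors, scored 509 and 99.7 at Day 4 and Day 8, 92.1 at Day 12, and 9.48 and 8.04 in Day 12- 4 and Day 12- 12. Lyn, a Src-family kinase gene, had 2 members inside the gene, which scored 253 and 253 at Day 4, 72.005 and 160.4 at Day 8, and 42.1 and 27.3 at Day 12. A site inside Rasa3, a GTPase-activating protein gene, scored 314 and 181 at Day 4 and Day 8, and 58.9 at Day 12. A site 1.22 kb before Prkcd, a protein kinase C gene, scored 199 at Day 4 and 32.9 at Day 12. The Syk, Rasa3 and Prkcd sites ranked 88, 561 and 1620 at Day 4, and 7303, 10271 and 15423 at Day 12. The Lyn sites ranked 987 and 984, then 13002 and 17395. In the same list, sites inside Dock2, an activator of Rac, and Fgr, a Src-family kinase gene, scored higher at Day 12. They had 166 and 249 at Day 4 and 399 and 404 at Day 12. The Dock2 site ranked 2190 of 57424 at Day 4 and 976 of 86271 at Day 12. The Fgr site ranked 1022 and 946, a nearly equal place. In Day 12- 4 the Dock2 and Fgr sites scored 57.4 and 35.3.

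Members lay on each of the chromosomes 1 to 19 and on X. On these, their share of the merged sites of a chromosome ran from 0.661% on X (19 of 2873) to 1.78% on chromosome 16 (73 of 4112), beside 1.19% over all merged sites. The 30 merged sites of chromosome Y held no member.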
